A study of Mus musculus with 6 samples.

Results

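The 8 genes described here encode components and receptors of the complement system: the 3 chains of C1q (C1qa, C1qb, C1qc), the central component C3, factor B (Cfb), properdin (Cfp), and the receptors for the C3a and C5a fragments (C3ar1, C5ar1). They were chosen as a list of gene symbols and read from the deposited table of normalized expression, in which all 8 had a row among 16111 genes. The libraries came from mouse fetal liver macrophages of strain C57BL/6 RCC, 3 of them wild-type and 3 deficient in Ahrr, which encodes the repressor of the aryl hydrocarbon receptor. The knockout is written AhRR-/- in the growth protocol and the targeted exons are not given in the sources used here. Per the labels, both groups were taken at E13.5 and grown under the same conditions for 5 weeks in RPMI with 2% GM-CSF, and the floating cells were sequenced as polyA RNA. Each library carries a mouse number from 1 to 3, and whether cells of several fetuses were pooled is not given in the sources used here. Values of single libraries are listed below in the order of replicates 1, 2 and 3.

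Complement is a cascade of serum proteins that tags microbes and dying cells for uptake. The classical pathway begins when C1q binds a surface, the lectin pathway begins with ficolins and mannose-binding lectins, and the alternative pathway begins from C3 itself with factor B and is stabilized by properdin. All 3 routes cleave C3, and the small fragments C3a and C5a act on receptors of macrophages and neutrophils. The liver makes most circulating complement, while macrophages make C1q, properdin and part of the C3 found in tissues.

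Library totals ranged from 3556106 to 41668336 counts, an 11.7-fold range, with the smallest in Ahrr-deficient replicate 1 and the largest in Ahrr-deficient replicate 2. Levels are given as CPM, the counts scaled to the library total. The edgeR fits further scale each library by a factor for its composition (TMM), from 0.904 in wild-type replicate 2 to 1.04 in Ahrr-deficient replicate 2. Overlap of the groups is read on CPM without this factor. Ahrr lay between 4.29 and 5.32 CPM in wild-type libraries and between 1.21 and 2.57 CPM in Ahrr-deficient libraries (log2 fold change -1.21, adjusted p = 0.0151 in edgeR), so transcripts assigned to it were lower but not absent. All 8 listed macrophage markers were measured, and their summed level was 21829 to 27080 CPM in wild-type libraries, against 15069 to 22592 CPM with Ahrr deficiency. Most of this sum was Lyz2, which did not pass (adjusted p = 0.0926 in edgeR). Of the 8 markers, Csf1r (adjusted p = 0.0304) and Cd14 (adjusted p = 0.00329) were lower in Ahrr-deficient cells in the edgeR fit. The other 6 did not pass, and the log2 fold change was below 0 for all 8. The part of these markers in the complement results was not tested. Of 8 listed symbols of alveolar macrophage markers, 7 had a row, and the remaining one, Siglec5, is not a gene name of the annotation used here. Of the 7, Itgax, Car4 and Pparg were higher. The other 4 did not pass, with log2 fold changes of 0.39 for Siglecf, -0.13 for Chil3, -0.51 for Marco and -0.53 for Fabp4. Nearly all of the list is Chil3, and the summed level was 36120 to 38973 CPM in wild-type libraries, against 35221 to 37640 CPM with Ahrr deficiency.

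Defining markers of several other cells that could supply complement transcripts were at or near 0. Hepatocytes make most C3 and factor B of the body. Of 8 hepatocyte genes, Alb, Apoa1, Ttr, Serpina1a and Fgb each had fewer than 10 counts over the 6 libraries together, Afp did not exceed 0.864 CPM and Apoa2 did not exceed 0.365 CPM. The summed hepatocyte level of 158 to 186 CPM in wild-type libraries, against 89.7 to 119.8 CPM with Ahrr deficiency, came almost entirely from transferrin (Trf), which macrophages also express and which fell in Ahrr-deficient cells (adjusted p = 0.00618 in edgeR). Neutrophils store properdin, and 6 of 8 neutrophil genes had fewer than 10 counts in all, with a summed level of 1.32 to 2.38 CPM in wild-type libraries, against 0.696 to 1.41 CPM with Ahrr deficiency. All 5 mast cell genes and all 3 B cell genes also had fewer than 10 counts, and the endothelial list summed to at most 1.401 CPM. The erythroid list summed to 13.49 to 23.0 CPM in wild-type libraries, against 2.86 to 4.96 CPM with Ahrr deficiency, nearly all from the erythropoietin receptor Epor, which fell (adjusted p = 0.00113 in edgeR). The fibroblast list summed to 1.62 to 9.68 CPM, all from Pdgfra. The dendritic cell list summed to 57.6 to 62.1 CPM in wild-type libraries, against 72.0 to 93.2 CPM with Ahrr deficiency, mostly from Clec9a, which rose (adjusted p = 0.0256 in edgeR), with Flt3 and Ccr7 each under 10 counts in all. The part of these genes in the complement results was not tested.

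Properdin and the C5a receptor were lower in Ahrr-deficient cells. Cfp fell to 62.0% and C5ar1 to 53.5% of the wild-type mean. The other 4 tested members, C3, C3ar1, C1qb and Cfb, did not pass the threshold, and C1qa and C1qc had too few counts to be tested. Of the 6 tested members, 2 passed the edgeR threshold (adjusted p under 0.05), both lower. Among all 11408 tested genes 19.6% passed, with 9.95% lower and 9.62% higher in Ahrr-deficient cells. The groups did not overlap for 2 of the 6 tested members, Cfp and C5ar1, and for 36.6% of all tested genes. The fitted log2 fold change was below 0 for all 6 tested members, against 49.1% of all tested genes, and its median was -0.68 for the members and 0.01 for all tested genes. It was also below 0 for all 8 listed macrophage markers, with a median of -0.38. In these bulk libraries, fewer cells that express a gene and less RNA per cell cannot be told apart.

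**Figure D1:**
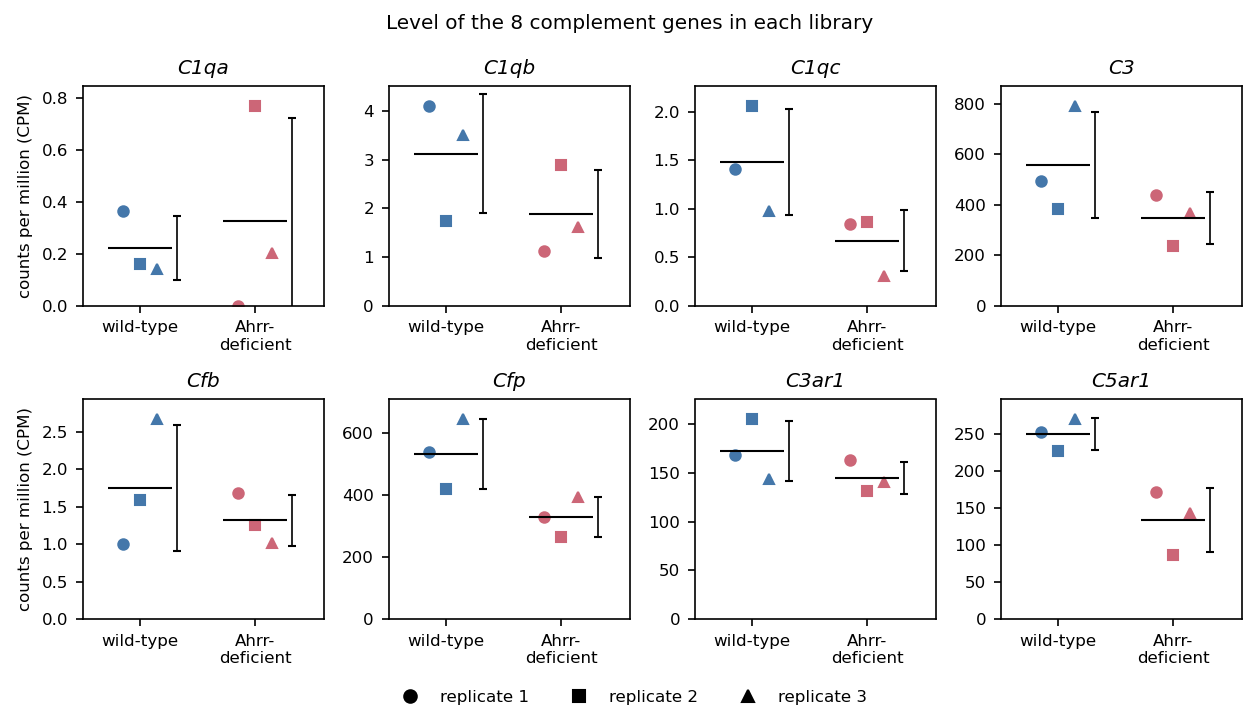
Level of each of the 8 genes in CPM, on axes that start at 0, with 1 point for each library and its shape for the replicate number. The horizontal line is the mean and the bar beside it is 1 SD (n = 3; the bar of C1qa is clipped at 0). Only for C1qc, Cfp and C5ar1 do the groups not overlap, and C1qa is near 0 in all libraries. The values of C1qc in Ahrr-deficient replicates 1 and 3 rest on 3 counts each, so its separation is within counting error.

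The promoter windows of Cfp, C3 and C5ar1 are printed here because these were the members with the most similar profiles over the libraries, as described below, and Cfp and C5ar1 were the ones that passed the threshold. Each window holds 250 bases before and 50 bases after the annotated start, is read on the minus strand, which is that of the gene, and comes from the RefSeq table of build GRCm38.p6, in which 6 of the 8 members were matched. C1qa and Cfb were not matched. Capitals mark matches to any of the 6 motifs searched on both strands.
Cfp, chrX:20931506-20931805: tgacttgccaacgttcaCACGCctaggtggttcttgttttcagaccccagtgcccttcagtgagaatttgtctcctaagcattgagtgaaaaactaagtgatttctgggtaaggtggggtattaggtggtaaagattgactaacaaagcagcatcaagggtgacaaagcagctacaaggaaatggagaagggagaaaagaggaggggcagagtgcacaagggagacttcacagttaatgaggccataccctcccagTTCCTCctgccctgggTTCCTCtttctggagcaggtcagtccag
C3, chr17:57228087-57228386: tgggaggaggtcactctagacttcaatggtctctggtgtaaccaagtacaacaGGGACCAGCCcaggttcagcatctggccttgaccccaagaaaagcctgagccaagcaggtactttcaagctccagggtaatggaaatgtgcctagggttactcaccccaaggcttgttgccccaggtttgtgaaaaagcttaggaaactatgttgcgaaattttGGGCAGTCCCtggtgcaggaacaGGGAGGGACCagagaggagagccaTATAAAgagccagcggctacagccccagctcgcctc
C5ar1, chr7:16259289-16259588: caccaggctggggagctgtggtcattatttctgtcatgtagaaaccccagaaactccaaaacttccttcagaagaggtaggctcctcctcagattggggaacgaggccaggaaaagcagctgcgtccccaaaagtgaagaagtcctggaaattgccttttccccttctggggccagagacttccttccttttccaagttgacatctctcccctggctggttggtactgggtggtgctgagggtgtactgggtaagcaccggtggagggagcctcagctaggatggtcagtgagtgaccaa

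The motif searched first was the core of the dioxin response element, GCGTG, which the aryl hydrocarbon receptor and its repressor are known to bind. It occurred in 1 of the 6 member windows, that of Cfp, on the strand opposite to the gene at position -233 relative to the start, against 32.4% of all 32851 windows in the table. The longer form TNGCGTG, which contains the core, occurred in 0 of 6 windows, against 5.07% of all windows. The PU.1 core GAGGAA, named for a factor of the macrophage lineage, occurred in the windows of C1qb, C1qc and Cfp, against 28.3% of all windows. In Cfp it occurred at 2 places, 7 and 23 bases after the start. A short NF-kB motif occurred in the windows of C1qb, C1qc and C3, against 20.7% of all windows, with 3 matches in C3. The letters TATAAA of the TATA box occurred in C3, 15 bases after the annotated start, and in C3ar1 at position -235 (13.6% of all windows). The interferon-stimulated response motif occurred in 0 of 6 (3.44% of all windows). The window of C5ar1 held none of the 6 letter patterns. Windows and motif positions follow the RefSeq starts, while the gene coordinates given below follow another annotation. In the latter C5ar1 starts at 16259540 and C1qc at 136893065, both inside their windows. By that annotation most of these 2 windows lies within the gene, so they hold little sequence before its start. A match describes letters in the window, and binding was not measured in these data.

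Cfp (ENSMUSG00000001128.7, chromosome X, 20925454 to 20931555, minus strand, GRCm38) encodes properdin, the positive regulator that stabilizes the C3 convertase of the alternative pathway. The wild-type libraries held 11793, 2633 and 4590 counts of it, equal to 538, 418 and 643 CPM. The Ahrr-deficient libraries held 1174, 11078 and 3900 counts, equal to 330.1, 266 and 394 CPM. The lowest wild-type library lay above the highest Ahrr-deficient library, a separation in the lower direction that 12.8% of all tested genes showed. The mean was 533 ± 113 CPM in wild-type and 330.1 ± 64.3 CPM with Ahrr deficiency (SD, n = 3), for a log2 fold change of -0.76 (SE 0.17, adjusted p = 0.0165 in edgeR). The call was lost without wild-type replicate 1 (-0.76, adjusted p = 0.0582 in edgeR) and without wild-type replicate 3 (-0.64, adjusted p = 0.0556 in edgeR). Cfp lies on the X chromosome, and 4 Y-linked genes together gave 254 to 409 CPM in every library, while Xist did not exceed 0.684 CPM.

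C3 (ENSMUSG00000024164.15, chromosome 17, 57203970 to 57228136, minus strand) encodes the protein on which all complement routes converge. It measured 496, 384 and 792 CPM in the wild-type libraries, against 439, 237 and 369 CPM in the Ahrr-deficient ones. Ahrr-deficient replicate 1 exceeded wild-type replicate 2, so the groups overlapped. The mean was 557 ± 211 CPM in wild-type and 348 ± 103 CPM in Ahrr-deficient cells (SD, n = 3). The log2 fold change of -0.74 (SE 0.27) was close to that of Cfp but did not pass the threshold (adjusted p = 0.0834 in edgeR). Without Ahrr-deficient replicate 1, the shallowest library, it was -0.96 and passed (adjusted p = 0.0280 in edgeR), and without wild-type replicate 3 it was -0.45 (adjusted p = 0.261 in edgeR).

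Cfb (ENSMUSG00000090231.10, chromosome 17, 34856374 to 34862518, minus strand) encodes factor B, which supplies the protease of the alternative convertase. It was close to the limit of detection, with 22, 10 and 19 counts in the wild-type libraries, against 6, 52 and 10 in the Ahrr-deficient ones. These equalled 1.00, 1.59 and 2.66 CPM in the former and 1.69, 1.25 and 1.01 CPM in the latter, and the groups overlapped. The log2 fold change was -0.39 (SE 0.39, adjusted p = 0.505 in edgeR), and without wild-type replicate 3 it was -0.03. The exons of Cfb overlap those of the annotated gene Gm20547 on the same strand over 2246 bases, so its counts are uncertain. Factor D (Cfd), the protease that activates factor B, had fewer than 10 counts over the 6 libraries.

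C5ar1 (ENSMUSG00000049130.6, chromosome 7, 16246743 to 16259540, minus strand) encodes the receptor for C5a, a chemoattractant of myeloid cells. The wild-type libraries held 5559, 1433 and 1926 counts of it, equal to 253, 227 and 269.8 CPM. The Ahrr-deficient libraries held 610, 3631 and 1414 counts, equal to 172, 87.1 and 143 CPM. The wild-type libraries lay close together and all above the Ahrr-deficient libraries, which spread more widely. The mean was 250.2 ± 21.4 CPM in wild-type and 134 ± 42.9 CPM with Ahrr deficiency (SD, n = 3), for a log2 fold change of -0.99 (SE 0.21, adjusted p = 0.0147 in edgeR). The call was lost without wild-type replicate 1, where the log2 fold change was -0.997 (adjusted p = 0.0522 in edgeR).

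C3ar1 (ENSMUSG00000040552.8, chromosome 6, 122847138 to 122856161, minus strand) encodes the receptor for C3a. It measured 169, 205 and 144 CPM in the wild-type libraries, against 163, 131 and 140.5 CPM in the Ahrr-deficient ones. The groups overlapped, since Ahrr-deficient replicate 1 exceeded wild-type replicate 3. The log2 fold change was -0.34 (SE 0.17, adjusted p = 0.177 in edgeR), and without wild-type replicate 2 it was -0.14. The difference between the changes of C5ar1 and C3ar1 was not tested.

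The 3 chains of C1q are needed together for the C1q protein and are known as transcripts of resident tissue macrophages. In these cultures they were rare. The genes lie next to each other on the minus strand of chromosome 4, C1qb from 136880129 to 136886187 (ENSMUSG00000036905.8), C1qc from 136889804 to 136893065 (ENSMUSG00000036896.5) and C1qa from 136895917 to 136898803 (ENSMUSG00000036887.5), with 3616 and 2851 bases between neighbours. C1qb had 90, 11 and 25 counts in the wild-type libraries, against 4, 120 and 16 in the Ahrr-deficient ones. These equalled 4.10, 1.75 and 3.50 CPM in the former and 1.12, 2.88 and 1.62 CPM in the latter, with overlap between the groups. The log2 fold change of C1qb was -0.62 (SE 0.33, adjusted p = 0.217 in edgeR), and it moved between -1.24 without Ahrr-deficient replicate 2 and -0.35 without wild-type replicate 1.

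C1qc had 31, 13 and 7 counts in the wild-type libraries, against 3, 36 and 3 in the Ahrr-deficient ones, or 1.41, 2.06 and 0.981 CPM against 0.844, 0.864 and 0.303 CPM. All Ahrr-deficient values lay below the wild-type values, and 2 of the 3 rested on 3 counts, taken here as the floor of detection. The exact 95% intervals of Ahrr-deficient replicate 2 (0.605 to 1.20 CPM) and wild-type replicate 3 (0.394 to 2.02 CPM) overlapped. The separation of C1qc is thus within counting error. In a fit without a filter on low counts its log2 fold change was -1.08 (SE 0.42, adjusted p = 0.121 in edgeR). C1qa had 8, 1 and 1 counts in the wild-type libraries, against 0, 32 and 2 in the Ahrr-deficient ones, so 4 of the 6 libraries were at or under the floor. In Ahrr-deficient replicate 1 the absence of counts allows a level of up to 0.844 CPM by the floor of 3 counts, and the upper limit of its exact 95% interval was 1.04 CPM. Only the deepest libraries of the groups gave C1qa above the floor, with 0.365 CPM in wild-type replicate 1 (95% exact Clopper-Pearson interval 0.157 to 0.718) and 0.768 CPM in Ahrr-deficient replicate 2 (0.525 to 1.08). These intervals overlap and cover counting error only. In the fit without a filter on low counts the log2 fold change of C1qa was 0.89 (SE 0.70, adjusted p = 0.450 in edgeR). This value lay above 0, unlike that of C1qc. With 4 of the 6 libraries at or under the floor, no direction is read from it. A difference between the genotypes in C1qa was not detectable at this depth.

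Scaled to length, the members formed a group of abundant transcripts and a group of rare ones. On the scale of CPM per kilobase of exon, the wild-type means were 307 ± 64.9 for Cfp, 108 ± 41.0 for C3, 97.4 ± 8.32 for C5ar1 and 40.0 ± 7.16 for C3ar1 (SD, n = 3). They were 2.86 ± 1.13 for C1qb, 0.769 ± 0.282 for C1qc, 0.620 ± 0.298 for Cfb and 0.213 ± 0.120 for C1qa (SD, n = 3). In wild-type cells C3 and C5ar1 overlapped over the libraries, as did C1qc and Cfb, and the ranges of Cfp and C3, C5ar1 and C3ar1, C3ar1 and C1qb, and C1qb and C1qc were separate. C1qa was at or under the floor in 2 of the 3 wild-type libraries, so its place below Cfb is not read as a separation. In Ahrr-deficient cells the means were 190.2 for Cfp, 67.7 for C3, 52.1 for C5ar1, 33.7 for C3ar1, 1.72 for C1qb, 0.466 for Cfb, 0.347 for C1qc and 0.311 for C1qa. There C3 overlapped C5ar1, C5ar1 overlapped C3ar1, Cfb overlapped C1qc and C1qc overlapped C1qa. The level of C1qb per kilobase exceeded that of C1qc in all 6 libraries, by a ratio of 1.502 to 9.47 over union exons. With the shorter longest transcript of C1qc the ratio was 0.936 in wild-type replicate 2 and 1.47 to 5.90 in the others.

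**Figure D2:**
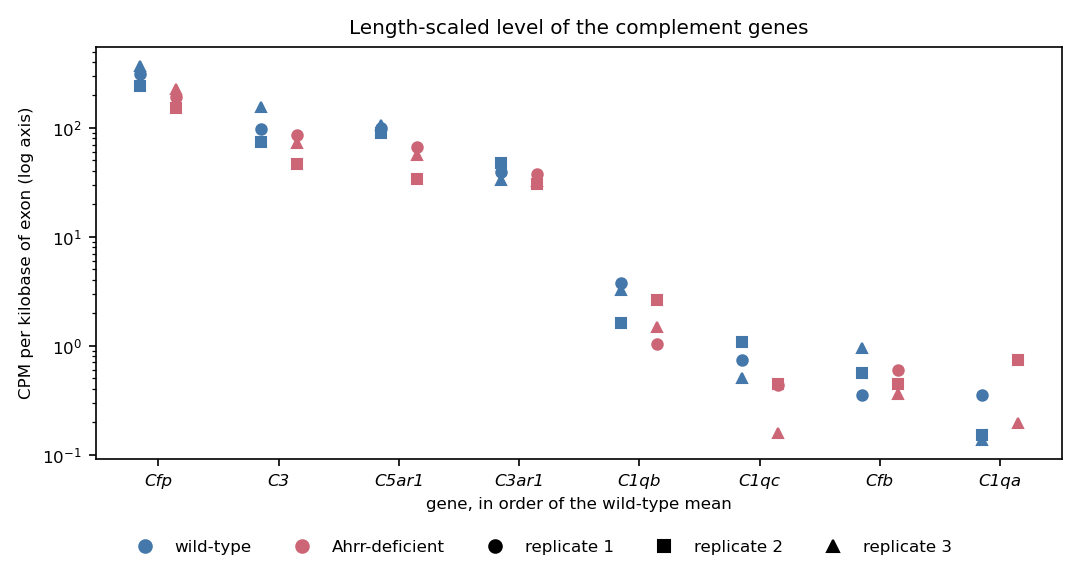
Level of each gene per kilobase of its exons (CPM per kilobase, log axis), with 1 point for each library, coloured by genotype and shaped by replicate, and genes in order of the wild-type mean. Cfp, C3, C5ar1 and C3ar1 lie above 30 and the C1q chains and Cfb below 4; the value of 0 of C1qa in Ahrr-deficient replicate 1 has no place on a log axis and is left out.

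Cfp, C3 and C5ar1 had the most similar profiles among the members. Likeness was measured as the root mean square difference of log2 CPM, centred for each gene, over the 6 libraries, and is a description with no test. This log2 CPM includes the TMM factors and a prior count of 2, unlike the CPM printed above. The difference was 0.23 between C3 and Cfp, 0.26 between C5ar1 and Cfp, and 0.28 between C5ar1 and C3, where the median over the 10030 other genes compared was 0.56 for C3. Of those genes, 0.389% were nearer to C3 than Cfp was, and 2.08% were nearer to Cfp than C3 was. For C5ar1 and Cfp, 1.66% were nearer to C5ar1 and 4.34% nearer to Cfp. For C5ar1 and C3, 2.10% were nearer to C5ar1 and 1.17% nearer to C3. C1qb differed from the other tested members by 0.55 to 0.77, where its median over the other genes compared was 0.64. C3ar1 differed from them by 0.43 to 0.71, all above its median of 0.33. The members share libraries, so depth and library composition are common to all of these values.

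**Figure D3:**
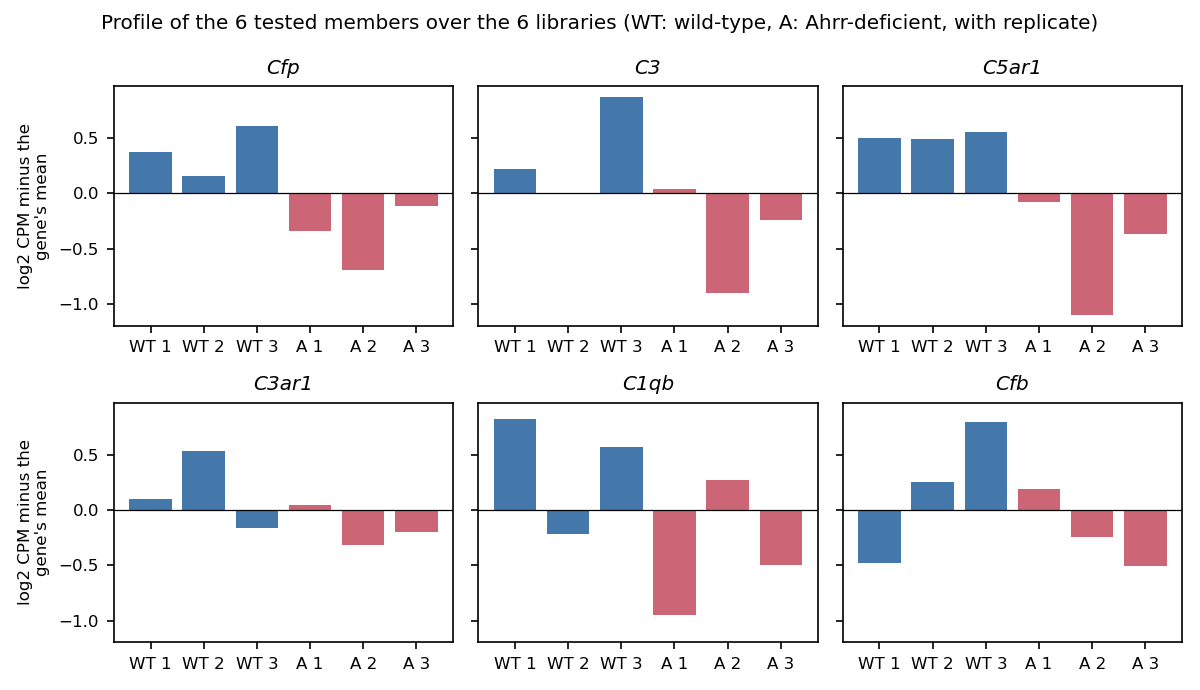
Log2 CPM (with TMM factors and a prior count of 2) of each of the 6 tested members minus its mean over the 6 libraries. Wild-type libraries (WT) are in blue and Ahrr-deficient libraries (A) in red. Cfp, C3 and C5ar1 have their lowest bar in Ahrr-deficient replicate 2, at -0.69, -0.89 and -1.10, while the lowest bar of C1qb is that of Ahrr-deficient replicate 1, at -0.95.

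Among genes outside the list, the 3 nearest to C5ar1 were Erbb2 (0.06), Rassf2 (0.08) and Siglec1 (0.10), the last a sialic acid receptor of macrophages. Genes near to Cfp were Ebi3 (0.10) and Pitpnm2 (0.10), and Ebi3 encodes a subunit of interleukin-27. Those nearest to C3 were Stx11 (0.11), Ear2 (0.12) and Dusp5 (0.13), and those nearest to C3ar1 were Lrba (0.03), Kdm5b (0.06) and Gpr35 (0.07). The rare members had more distant neighbours, Trp53i13 (0.19), 2310009A05Rik (0.25) and Coro6 (0.26) for C1qb and Gm14023 (0.17), Dnajc30 (0.24) and Atp6v1g2 (0.24) for Cfb.

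The rest of the pathway was read from a list of 48 other complement genes, of which 20 had a row and 18 had enough counts to be tested. The remaining 28 had fewer than 10 counts over the 6 libraries, and these include 6 of 7 terminal components, 7 of 8 lectin pathway genes and the macrophage receptor gene Vsig4. Of the 18 tested genes, 2 were higher and 1 was lower in Ahrr-deficient cells, 16.7% in all, close to the 19.6% of all tested genes. The median log2 fold change of the 18 genes was -0.12, with 11 of them below 0 and 7 above.

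The genes that rose were Itgax and Cd59a. Itgax (chromosome 7, 128129547 to 128150657), the alpha chain of complement receptor 4, measured 57.7, 49.4 and 46.9 CPM in the wild-type libraries, against 143, 218 and 166 CPM in the Ahrr-deficient ones, a log2 fold change of 1.70 (SE 0.15, adjusted p = 6.96e-04 in edgeR). Its partner Itgb2 had a log2 fold change of 0.29 (adjusted p = 0.0886 in edgeR), and its groups did not overlap, as for 36.6% of all tested genes. Itgb2 passed with DESeq2 (adjusted p = 0.0264) and limma-voom (adjusted p = 0.0383). In edgeR it passed with offsets for GC content (adjusted p = 0.0328) and without Ahrr-deficient replicate 1 (adjusted p = 0.0353), and in no other fit. Itgam, the alpha chain of complement receptor 3, had a log2 fold change of -0.11 (adjusted p = 0.793 in edgeR). The counts of Itgam are uncertain, since Gm49368 overlaps its exons on the same strand over 3450 bases. Cd59a (chromosome 2, 104095801 to 104115354), which blocks assembly of the membrane attack complex, measured 7.48, 7.46 and 8.27 CPM in the wild-type libraries, against 18.8, 18.5 and 17.0 CPM in the Ahrr-deficient ones. The fitted level rose 2.24-fold (adjusted p = 0.00121 in edgeR), and its paralog Cd59b had at most 1.12 CPM. Both Itgax and Cd59a passed in each of the 6 fits that left out 1 library.

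The gene that fell was C5ar2 (chromosome 7, 16234585 to 16244154), which encodes the second C5a receptor and lies 2588 bases from C5ar1. It measured 36.0, 30.2 and 39.5 CPM in the wild-type libraries, against 31.2, 18.1 and 23.0 CPM in the Ahrr-deficient ones. The log2 fold change was -0.70 (SE 0.18, adjusted p = 0.0281 in edgeR). In CPM the groups overlapped, because Ahrr-deficient replicate 1 exceeded wild-type replicate 2. The TMM factors of these libraries in the fit, 1.01 and 0.904, reverse that order. The call of C5ar2 held in the fit without Ahrr-deficient replicate 1 and was lost without each of the other 5 libraries. In those 5 fits the log2 fold changes were -0.74 to -0.50 and the edgeR adjusted p was from 0.0660 to 0.103. It was also lost with all libraries thinned to the smallest total (-0.57, adjusted p = 0.0951 in edgeR).

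C4b (chromosome 17, 34728380 to 34743882), the complement component C4 of the classical and lectin convertase, did not pass. It measured 759, 662 and 890.1 CPM in the wild-type libraries, against 655, 350.5 and 538 CPM in the Ahrr-deficient ones, and the groups did not overlap. Its log2 fold change was -0.65 (SE 0.21, adjusted p = 0.0594 in edgeR), and it passed without Ahrr-deficient replicate 1 (-0.88, adjusted p = 0.00759 in edgeR), with DESeq2 (-0.65, adjusted p = 0.00458) and with limma-voom (-0.65, adjusted p = 0.0451). C4a, a near-identical copy, ranged from 0.476 to 2.09 CPM and had a fitted log2 fold change of 0.42 (adjusted p = 0.400 in edgeR), and reads of the pair could be split between them. The protease genes C1ra (-0.25, adjusted p = 0.245 in edgeR) and C2 (-0.15, adjusted p = 0.663 in edgeR), ficolin A (Fcna, -0.50, adjusted p = 0.0959 in edgeR) and the terminal component gene C8g (-0.38, adjusted p = 0.271 in edgeR) did not pass either. Among regulators, Cd46 (-0.61, adjusted p = 0.0757 in edgeR) and Cr1l (-0.04, adjusted p = 0.800 in edgeR) did not pass. The groups of Cd46 did not overlap, and it passed with limma-voom (adjusted p = 0.0410). In edgeR it passed with offsets for GC content (adjusted p = 0.0383) and without Ahrr-deficient replicate 1 (adjusted p = 0.0395), and in no other fit. Among proteins reported to bind C1q, Cd93 had 0.01 (adjusted p = 0.955 in edgeR), Lrp1 had -0.13 (adjusted p = 0.476 in edgeR), Calr had -0.28 (adjusted p = 0.204 in edgeR) and C1qbp had 0.17 (adjusted p = 0.450 in edgeR) on the log2 scale. The counts of C2 and Cd46 are uncertain, since other annotated genes overlap their exons, Gm20547 on the same strand over 1656 bases of C2 and A330023F24Rik on the opposite strand over 1079 bases of Cd46.

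**Figure D4:**
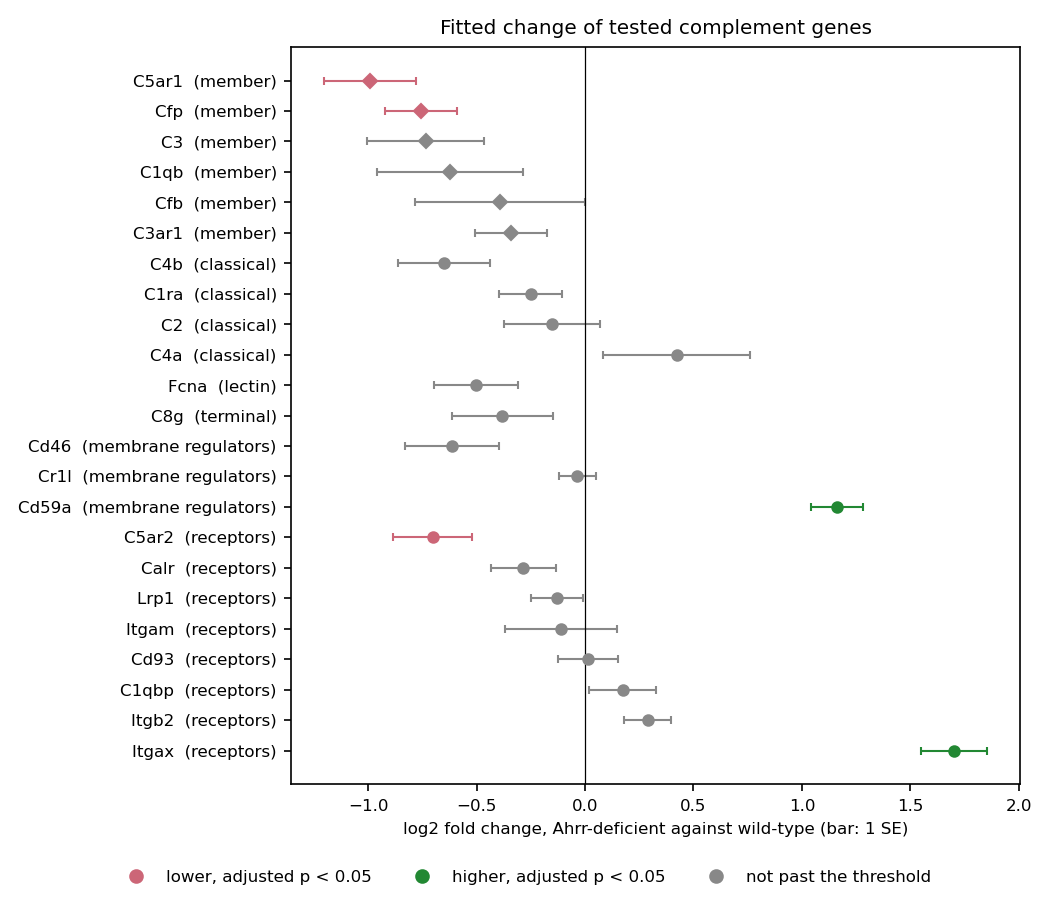
Log2 fold change of Ahrr-deficient against wild-type for the 6 tested members (diamonds) and other tested complement genes (circles), with bars of 1 SE, coloured by the edgeR call. C5ar1, Cfp and C5ar2 are lower, Itgax and Cd59a are higher, and the other genes drawn did not pass the threshold.

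Fold changes of the series moved with base composition. Across 11394 tested genes the log2 fold change had a Spearman correlation of -0.28 with GC content, and genes are not independent replicates. GC content was 56.3% for Cfp, 53.3% for C3 and 49.2% for C5ar1, against a median of 49.2% over tested genes. With offsets for GC content, chosen after seeing the data, the log2 fold change was -0.62 for Cfp (adjusted p = 0.0315 in edgeR), -0.997 for C5ar1 (adjusted p = 0.0185 in edgeR) and -0.66 for C3 (adjusted p = 0.133 in edgeR). With all libraries thinned to the smallest total it was -0.73 for Cfp (adjusted p = 0.0150 in edgeR), -1.03 for C5ar1 (adjusted p = 0.0107 in edgeR) and -0.76 for C3 (adjusted p = 0.0803 in edgeR).

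**Figure D5:**
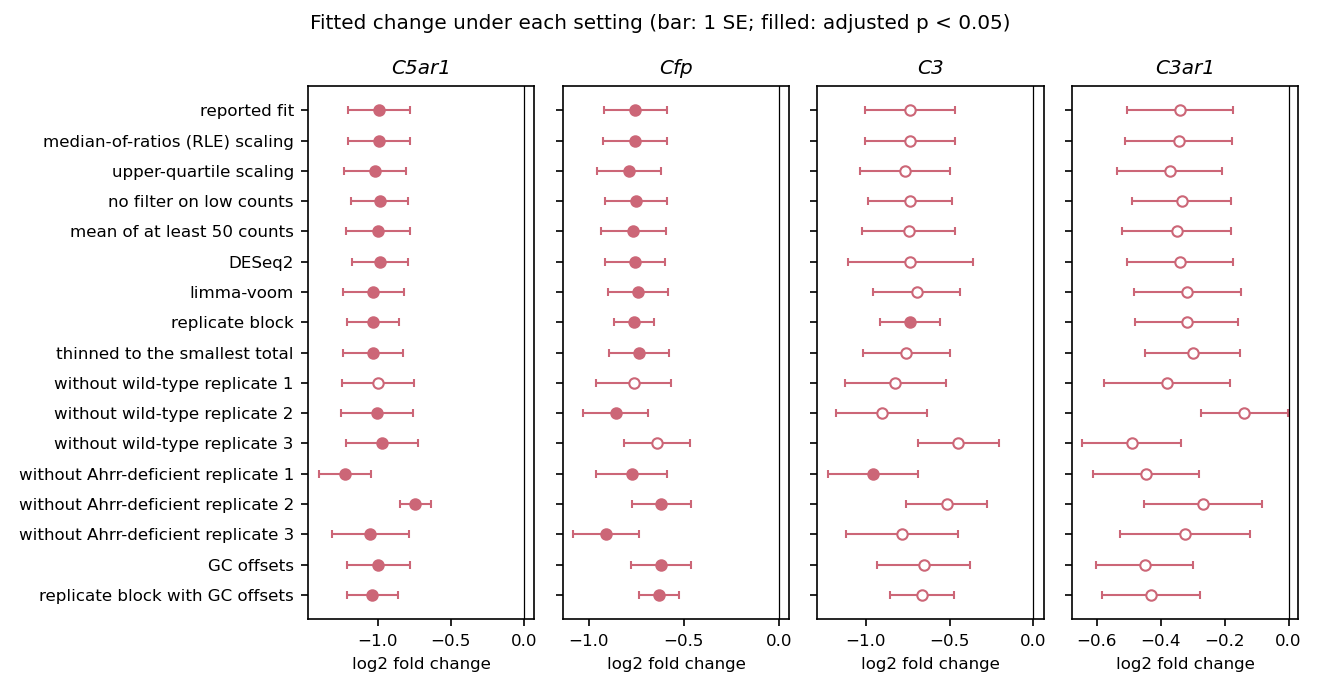
Log2 fold change of C5ar1, Cfp, C3 and C3ar1 in the reported fit and 16 other fits, with bars of 1 SE and filled points for an adjusted p under 0.05. C5ar1 is filled in all but 1 of the other fits and Cfp in all but 2, C3 in 2 and C3ar1 in 0, and every point lies below 0.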

How the data were processed

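The authors deposited raw counts per feature without identifiers and, for 16111 genes with identifiers, a normalized signal, which is the count divided by a library size factor. The submitters' processing notes name mm10, CASAVA 1.8.2, fastp 0.20.0, STAR 2.7.10b, SAMtools 1.16.1, R 4.3.1 and DESeq2 1.40.2. The strand setting of counting and the annotation are not given in the sources used here. Per the labels, 100 ng of RNA per library was read as 75 bp single reads. Every value of the deposited signal was a whole multiple of 1 read (100% within 0.01 reads). The recovered reads equal the raw counts of all features with at least 10 counts in total, so a listed gene of the annotation without a row had fewer than 10. Features without an identifier held at most 0.0511% of a library and stayed in its total.

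Counts of 11408 genes that passed filterByExpr entered quasi-likelihood tests in edgeR 4.0.16 (TMM, genotype only, two-sided, Benjamini-Hochberg over all tested genes, threshold 0.05). The test was also run on simulated data with 200 genes changed and a biological coefficient of variation of 13%. At these settings it recovered 85% of 2-fold and 37% of 1.5-fold changes. In the data 2232 genes passed, and recovery with that many changes was not tested. Recovery for genes with a wider spread between libraries was not tested either. An exact permutation test of 3 against 3 libraries cannot go below 0.1 and was not used. Alternatives were RLE and upper-quartile scaling, no filter, a minimum mean count of 50, limma-voom (limma 3.58.1), DESeq2 1.42.0, a replicate block, thinning (1 random draw) and each library left out, and, added after seeing the data, GC offsets with and without the block. Coordinates and lengths are from GENCODE mouse release 21 (GRCm38). A floor of 3 counts was 0.0720 to 0.844 CPM, and covers counting error only. Whether replicates came from separate litters is not given in the sources used here, so p-values measure the spread between these cultures.

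The members, gene lists and motifs were chosen with earlier results of these data known. Named were all 8 members, each listed complement gene that passed, each tested protease, convertase, terminal or receptor gene, and for each tested member the 3 nearest genes with a mean of at least 50 counts, together with Ahrr and, of the marker lists, those at the highest level or past the threshold. Other named genes were chosen after their values were seen. A few items that this rule names are not reported here.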

Additional observations from a re-analysis of the deposited data

How the results depend on the processing

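In 16 other fits (14 for C1qb and Cfb, which lacked enough counts in 2), all 92 values of the 6 tested members kept a log2 fold change below 0. The fits reuse the same libraries, so these values are not independent of each other. C5ar1 passed in 15, Cfp in 14, C3 in 2 and the other members in 0. The cause of each change below was not tested. Leaving out 1 library moved the log2 fold change of C5ar1 between -1.22 and -0.74, of Cfp between -0.91 and -0.62 and of C3 between -0.96 and -0.45. The number of members that passed moved between 0 and 3, from 2. Other complement genes moved between 2 and 4 higher, from 2, and between 0 and 4 lower, from 1, and all tested genes between 327 and 1889 higher, from 1097, and between 367 and 1968 lower, from 1135. For the members and for all tested genes, the lowest counts came without wild-type replicate 1 and the highest without Ahrr-deficient replicate 1. The number of other complement genes that were lower was 2 with DESeq2, 3 with limma-voom, 2 with GC offsets and 0 after thinning, where all tested genes gave 630 higher and 644 lower.

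Same-numbered libraries did not deviate together, with correlations across genes of -0.169, 0.0714 and 0.129 for replicates 1, 2 and 3. Pairs of a wild-type and an Ahrr-deficient library with different numbers ranged from -0.214 to 0.163. Same-numbered libraries differ in genotype, so they are not from one animal. In the fit with a replicate block the log2 fold change of C3 was -0.73 (adjusted p = 0.0371 in edgeR), 3 other complement genes were lower, C4b among them (adjusted p = 0.0403 in edgeR), and all tested genes gave 666 higher and 724 lower. With the replicate block and GC offsets these were 634 and 642. The block changed the call of no other member. The level of Cfb in Ahrr-deficient cells was 75.1% of wild-type, and 101.6% without wild-type replicate 3. With upper-quartile scaling 41.8% of called genes were higher, against 49.1%. C1qa and C1qc were left out of the reported fit by the filter, and depth limits what can be said of them and of Cfb.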

Other observations

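The complement genes differed in the order of the Ahrr-deficient libraries. C3, C3ar1 and C5ar1 were lowest in replicate 2, intermediate in replicate 3 and highest in replicate 1, and so were C4b, C5ar2, Cd46, Cr1l and Calr among the 20 other listed genes with a row. Another order, lowest in replicate 1 and highest in replicate 3, was as common among the 20 other genes, with 5 genes each, and the other 5 members had other orders. The totals of these libraries have the opposite of the first order, with 41668336 counts in replicate 2, 9888711 in replicate 3 and 3556106 in replicate 1. In the wild-type libraries 7 of the first 8 genes named here, all but C3ar1, were lowest in replicate 2 and highest in replicate 3. All of these are orders of CPM without the TMM factor, which was lowest in wild-type replicate 2 (0.904). With that factor Cr1l and Calr would not be lowest in wild-type replicate 2. These orders were noticed in the data and were not tested.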
